A study of Rattus norvegicus with 4 samples.

Results

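The G1 phase regulators described here are 10 genes: the D-type cyclins Ccnd1, Ccnd2 and Ccnd3, the E-type cyclins Ccne1 and Ccne2, the CDK inhibitors Cdkn1a, Cdkn1b and Cdkn1c, the transcription factor gene Myc and the stress-response gene Gadd45g. They were chosen with earlier results of these data known, and were matched by name through the platform's table that pairs probe sets with gene symbols. Of the 10, 9 had a probe set with that single symbol, 1 probe set each, among 18166 genes tested. Ccnd3 was not analysed here. RNA came from the uterus of adult Sprague Dawley rats of 10 to 12 weeks, taken on day 5 of pregnancy, before implantation. Of the 4 arrays, 2 held uterus from rats dosed by mouth with ormeloxifene on day 1, at 1.25 mg per kg in gum acacia, and the other 2 came from vehicle controls. Ormeloxifene is an oral contraceptive that is not a steroid and modulates oestrogen receptors selectively by tissue. The labels call the arrays of a group biological replicates 1 and 2. The sources used here do not say how many rats stand behind each array. The p-values therefore rest on the spread between these 4 samples, not between rats, and on variance that limma shares between genes.

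Cells commit to division in G1. D-type cyclins bind the kinases CDK4 and CDK6 and start the phosphorylation of the retinoblastoma protein, which releases E2F transcription factors; E-type cyclins with CDK2 complete that step and open S phase. The proteins made from Cdkn1a, Cdkn1b and Cdkn1c bind cyclin-kinase complexes and restrain them. Myc drives growth and entry into the cycle, and Gadd45 proteins act in growth arrest and stress signalling. In the rodent uterus, oestrogen drives division of the epithelium, and progesterone moves division to the stroma as implantation nears.

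Promoter sequence is shown for the 3 genes whose arrays did not overlap between the groups and for which a RefSeq window was given: Gadd45g and Cdkn1a, which were lower on both ormeloxifene arrays, and Cdkn1b, which was higher on both. Each window runs 5′ to 3′ on the gene's strand, from 250 bases before the start on which the table builds the window to 50 after it, in the GRCr8 build. That start is the outermost start of the gene for Gadd45g, but lies 112 bases inside the annotated gene for Cdkn1a and 231 bases inside it for Cdkn1b, and positions are counted from it. The windows are chr17:13530302-13530601 (minus strand) for Gadd45g, chr20:7150682-7150981 (plus strand) for Cdkn1a and chr4:169491254-169491553 (plus strand) for Cdkn1b. Capitals mark the motifs searched for, on both strands.
Gadd45g: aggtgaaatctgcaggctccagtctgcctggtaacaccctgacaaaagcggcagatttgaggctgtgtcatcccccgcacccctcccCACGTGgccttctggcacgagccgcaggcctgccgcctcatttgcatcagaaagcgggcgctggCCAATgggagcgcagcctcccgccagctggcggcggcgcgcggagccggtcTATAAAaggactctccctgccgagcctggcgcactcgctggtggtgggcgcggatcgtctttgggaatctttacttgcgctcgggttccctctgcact
Cdkn1a: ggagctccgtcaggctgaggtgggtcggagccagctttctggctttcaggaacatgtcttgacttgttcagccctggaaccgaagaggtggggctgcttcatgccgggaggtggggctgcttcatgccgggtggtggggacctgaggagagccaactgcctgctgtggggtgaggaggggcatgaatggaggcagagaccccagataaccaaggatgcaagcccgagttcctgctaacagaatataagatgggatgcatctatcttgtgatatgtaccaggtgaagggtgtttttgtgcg
Cdkn1b: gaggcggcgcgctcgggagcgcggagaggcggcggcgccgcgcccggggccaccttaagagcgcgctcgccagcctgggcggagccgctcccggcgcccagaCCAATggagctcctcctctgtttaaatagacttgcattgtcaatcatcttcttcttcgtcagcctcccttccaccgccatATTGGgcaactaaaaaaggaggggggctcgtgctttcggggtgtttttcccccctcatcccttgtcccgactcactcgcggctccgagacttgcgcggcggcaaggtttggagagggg

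The Gadd45g window held the E-box CACGTG, the palindrome that Myc and related factors can bind, at position -163 from the window's start site, a CCAAT box at -99 and a TATA box (TATAAA) at -48. The E-box letters occurred in 6.65%, the TATA letters in 14.3% and the CCAAT letters in 37.7% of 27457 rat windows of 300 bases. The Cdkn1b window held 2 CCAAT boxes, at -148 and, on the other strand, at -68, and the Cdkn1a window held none of the motifs. E2F motifs were searched as TTTGGCGC, TTTCCCGC, TTTCGCGC and TTTGCCGC, which occurred in 2.25% of all windows, and the oestrogen response element as GGTCA followed by TGACC at a distance of 3 bases, which occurred in 0.0255%. Neither was found in these 3 windows, nor in those of Ccne1 and Ccnd3, whose windows are built on starts 77 and 89324 bases inside the annotated gene. A match describes letters in the window and is no evidence of binding. A lack of matches holds for the window alone, as any other start sites of these genes were not searched.

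Values are log2 signals after quantile normalization, means are given ± SD over the 2 arrays of a group, and differences are ormeloxifene minus vehicle ± standard error. Pairs of values for a group are given in the order replicate 1, replicate 2. Each probe set has its own response, so levels are compared between arrays and not between genes. Of the genes that mark the uterus, Esr1, Pgr and Hoxa10 lay between the 92.9th and the 97.0th percentile of mean signal over the 4 arrays. The arrays resembled each other by replicate number: 488 and 551 deposited values were exactly equal between arrays of the same number, against 0 in each other pair, and across genes r was 0.980 and 0.983 within a number, 0.973 between the ormeloxifene arrays and 0.963 between the vehicle arrays. The labels name no batch and do not say what the numbers stand for, so the difference within each number is given beside the members, the lists and the genes named from them. Of the markers of other cell types, 0 stood at an unadjusted p under 0.05 by limma, and higher means were found in 53.4% of all genes. On the ormeloxifene arrays smooth muscle markers had higher means in 4 of 4 measured (median 0.28), leukocyte markers in 4 of 4 (0.14), endothelial markers in 2 of 2 (0.26), fat markers in 2 of 2 (0.27), stromal markers in 3 of 5 (0.07) and epithelial markers in 3 of 6 (0.04). The mean smooth muscle signal was 10.27 and 10.09 with vehicle and 10.57 and 10.34 with ormeloxifene, the mean epithelial signal 7.69 and 7.68 with vehicle and 7.64 and 7.68 with ormeloxifene. Their part in the results below was not tested. In whole tissue, fewer cells of a type and less RNA per cell cannot be told apart.

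With ormeloxifene, 5 of the 9 genes had a lower mean and 4 a higher one. The lower genes were Gadd45g, Ccne2, Myc, Cdkn1a and Ccne1, and the higher ones were Cdkn1b, Cdkn1c, Ccnd1 and Ccnd2. Gadd45g had the largest difference, at 1.67-fold lower, and Cdkn1b was the highest at 1.24-fold. By limma, 0 of the 9 passed an adjusted p under 0.05, as did 0.00% of all genes tested. At an unadjusted p under 0.05 stood 1 of the 9, Gadd45g on the lower side, against 2.20% of all genes in either direction, 1.08% on the lower side and 1.12% on the higher side. Lower means were found in 46.6% of all genes, and the median difference was -0.14 over the 9 genes and 0.02 over all genes. The groups did not overlap in 3 genes on the lower side (Gadd45g, Myc and Cdkn1a) and 1 on the higher side (Cdkn1b), where the shares over all genes were 11.8% and 13.9%. With 2 arrays against 2, the smallest p that an exact permutation test can give for 1 gene is 0.333.

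**Figure D1:**
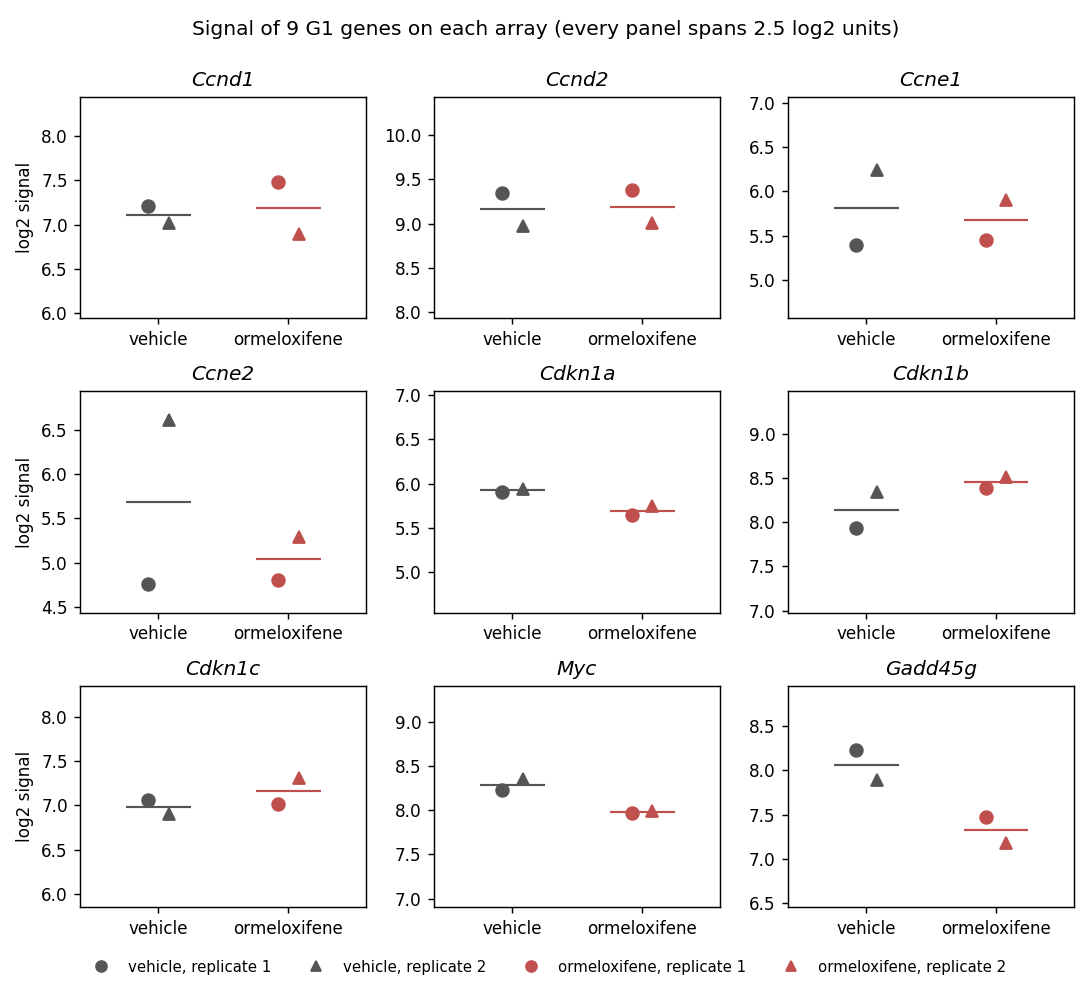
Log2 signal of the 9 genes on each array (vertical axis, each panel spanning 2.5 log2 units), with vehicle in grey and ormeloxifene in red, replicate 1 as circles, replicate 2 as triangles and group means as lines. Gadd45g, Myc and Cdkn1a lie lower on both ormeloxifene arrays and Cdkn1b lies higher, whereas the cyclin genes overlap between the groups.

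The D-type cyclins had the smallest differences of the 9 genes. Ccnd1, the cyclin through which many growth signals reach CDK4 and CDK6, read 7.21 and 7.01 on the vehicle arrays and 7.48 and 6.90 on the ormeloxifene arrays. The ormeloxifene values lay on either side of the vehicle values, and the difference was 0.08 ± 0.26 with a 95% interval from -0.52 to 0.67. It was 0.27 between the replicate 1 arrays and -0.12 between the replicate 2 arrays, and it turned to -0.21 without ormeloxifene replicate 1 and to -0.02 without vehicle replicate 2. Ccnd2, the D-type cyclin linked to growth of hormone-responsive gonadal cells in mice, read 9.35 and 8.97 with vehicle and 9.38 and 9.00 with ormeloxifene. Here the arrays paired by number and not by group: both replicate 1 arrays were higher, and the difference was 0.03 both between the replicate 1 arrays and between the replicate 2 arrays. The 95% interval of the Ccnd2 difference ran from -0.54 to 0.60, and the value was -0.16 without ormeloxifene replicate 1 and -0.16 without vehicle replicate 2. For both genes the interval leaves room for a difference of more than 0.5 in either direction.

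The differences of the E-type cyclins turned sign when single arrays were left out. Ccne2 read 4.76 and 6.61 with vehicle and 4.80 and 5.29 with ormeloxifene, so vehicle replicate 2 stood far above the other 3 arrays. The mean was 5.68 ± 1.31 (SD, n = 2) with vehicle and 5.04 ± 0.35 (SD, n = 2) with ormeloxifene. They differed by -0.64 ± 0.53 (95% interval -1.88 to 0.60). That difference was 0.04 between the replicate 1 arrays and -1.32 between the replicate 2 arrays. Without vehicle replicate 2 it turned to 0.28, and without vehicle replicate 1 it was -1.56, where the lone array of a group is taken to vary like the other group. Ccne1 showed the same order of arrays in smaller steps: 5.39 and 6.24 with vehicle and 5.45 and 5.91 with ormeloxifene, both replicate 2 arrays being higher. Its difference was -0.14 ± 0.32 with a 95% interval from -0.88 to 0.61, at 0.06 within number 1 and -0.33 within number 2. Without vehicle replicate 2 the Ccne1 difference was 0.29, and without ormeloxifene replicate 1 it was 0.09. The probe sets of Ccne2, Ccne1 and Cdkn1a were the dimmest of the 9, at the 27.2th, 36.7th and 38.4th percentile of mean signal.

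The 3 CDK inhibitors differed in direction: Cdkn1b and Cdkn1c had higher means with ormeloxifene and Cdkn1a a lower one. Cdkn1b encodes p27, an inhibitor of CDK2 complexes that is high in resting cells, and read 7.94 and 8.34 with vehicle and 8.39 and 8.52 with ormeloxifene. Both ormeloxifene arrays were higher than both vehicle arrays, by a mean of 0.31 ± 0.23 (95% interval -0.22 to 0.84), but the gap between the groups was small: ormeloxifene replicate 1 and vehicle replicate 2 were nearly level. The difference was 0.45 within number 1 and 0.17 within number 2, 0.11 without vehicle replicate 1 and 0.51 without vehicle replicate 2.

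Cdkn1a encodes p21, an inhibitor known as a target of p53, and read 5.91 and 5.94 with vehicle and 5.64 and 5.75 with ormeloxifene. The arrays of each group lay close together and the groups were apart, with a difference of -0.23 ± 0.20 (95% interval -0.70 to 0.24) that was -0.27 within number 1 and -0.20 within number 2. Its SD was 0.02 with vehicle and 0.07 with ormeloxifene, so most of the standard error came from the variance that limma shares between genes, and its probe set was almost as dim as that of Ccne1. Cdkn1c encodes p57, an imprinted inhibitor needed in placental and embryonic growth in mice, and read 7.06 and 6.90 with vehicle and 7.01 and 7.31 with ormeloxifene. Its groups overlapped, with ormeloxifene replicate 2 the highest array; the difference was 0.18 ± 0.22 (95% interval -0.33 to 0.69), at -0.05 within number 1 and 0.41 within number 2. Without ormeloxifene replicate 2 the Cdkn1c difference was 0.03.

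Myc was lower on both ormeloxifene arrays. It read 8.22 and 8.35 with vehicle and 7.96 and 7.99 with ormeloxifene, group means of 8.29 ± 0.09 and 7.98 ± 0.02 (SD, n = 2). The difference was -0.31 ± 0.20, or 1.24-fold lower, with a 95% interval from -0.78 to 0.17. Within number 1 it was -0.26 and within number 2 it was -0.36, and leaving out single arrays moved it from -0.25 to -0.37. By limma the unadjusted p was 0.169 and the adjusted p was 1.00.

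Gadd45g stood apart most. This member of the Gadd45 family, known to activate a stress kinase cascade and to restrain the cycle, read 8.24 and 7.90 with vehicle and 7.48 and 7.18 with ormeloxifene. Both ormeloxifene arrays were lower than both vehicle arrays, and replicate 2 minus replicate 1 gave a like step in each group, -0.34 with vehicle and -0.30 with ormeloxifene. The means were 8.07 ± 0.24 and 7.33 ± 0.21 (SD, n = 2), and the difference was -0.74 ± 0.23 with a 95% interval from -1.28 to -0.19. It was -0.76 within number 1 and -0.72 within number 2. By limma the unadjusted p was 0.0142 and the adjusted p over all genes was 1.00, so Gadd45g did not pass. Without ormeloxifene replicate 2 the difference was -0.59 (unadjusted p = 0.104 by limma) and without vehicle replicate 1 it was -0.57 (unadjusted p = 0.0725 by limma).

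**Figure D2:**
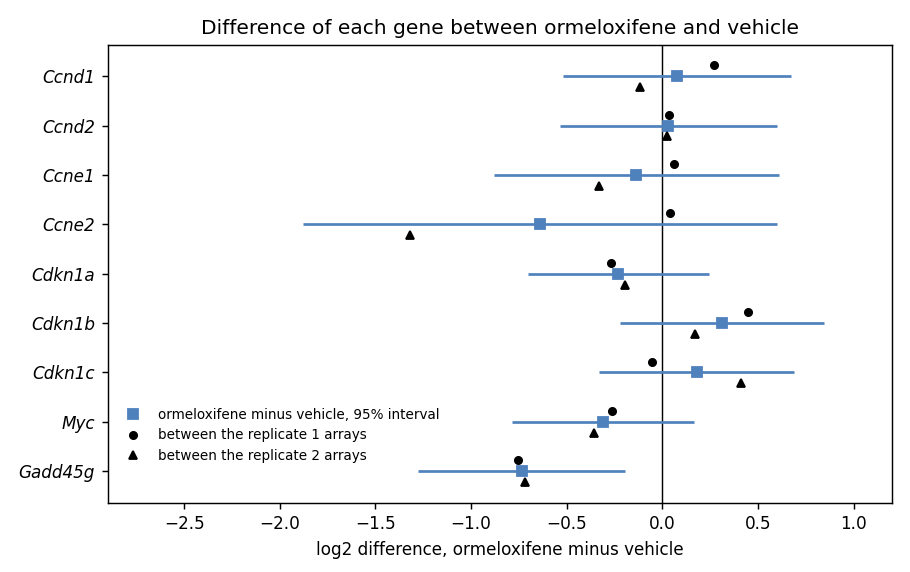
Log2 difference of each gene, ormeloxifene minus vehicle (horizontal axis), as a square with its 95% interval from limma, with the difference between the replicate 1 arrays as a circle and between the replicate 2 arrays as a triangle. The interval of Gadd45g runs from -1.28 to -0.19 and those of the other 8 genes include 0; the circle and triangle of Ccne2 lie 0.04 and -1.32 from 0.

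Its relatives had smaller differences. Gadd45a, which read 8.36 and 8.60 with vehicle and 8.53 and 8.70 with ormeloxifene, differed by 0.14 ± 0.22 (0.18 and 0.10 within numbers 1 and 2), and Gadd45b by -0.20 ± 0.24 (-0.02 and -0.38); the differences between family members were not tested. The genes closest to Gadd45g in pattern, by Euclidean distance between centred log2 values over the 4 arrays, were Ccl2, a chemokine that attracts monocytes (distance 0.0626), Sec11c, a subunit of the signal peptidase (0.0773), and Abcg5, a sterol transporter subunit (0.0968). Ccl2 read 8.59 and 8.17 with vehicle and 7.78 and 7.47 with ormeloxifene. With 4 arrays and 18166 genes to choose from, the likeness is a description alone.

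The other genes of the G1 circuit were described as lists, 81 measured of 90 listed. The lists were chosen with earlier results of these data known, so their counts beside the shares over all genes are a description alone. The 9 without a single-symbol probe set, among them Max, Npm1 and Fbxw7, were not analysed here. Of the 81, 53 were lower and 28 higher with ormeloxifene, with a median difference of -0.09; 5 (6.17%) stood at an unadjusted p under 0.05, all of them lower, and 0 passed the adjusted threshold by limma. Over all genes tested, 46.6% were lower, 2.20% stood at an unadjusted p under 0.05 and 1.08% did so on the lower side. The median over the 81 genes was -0.02 within number 1, where 42 were lower, and -0.16 within number 2, where 65 were. Of the 18166 genes tested, 7942 were lower within number 1 (median 0.04) and 9567 within number 2 (median -0.02). In the sentences on the lists, a pair of values after a difference gives it within number 1 and within number 2. Vehicle replicate 2 was the highest of the 4 arrays in 49 of the 81 (60.5%), compared with 28.3% of all genes tested. The same array was highest for Ccne1, Ccne2, Myc and Cdkn1a among the 9 members.

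The G1 kinases and their activators were lower in 6 of 7, with a median of -0.10 (-0.04 and -0.19) and 0 at an unadjusted p under 0.05. The phosphatase Cdc25a, which activates CDK2, differed by -0.29 ± 0.21 (-0.22 and -0.37). The difference of Cdk2 was -0.27 ± 0.22 (-0.08 and -0.46) and that of Cdk4 was -0.23 ± 0.22 (-0.04 and -0.42). Cdk4 read 10.64 and 11.02 with vehicle and 10.60 and 10.60 with ormeloxifene, so the ormeloxifene arrays lay just below vehicle replicate 1, and vehicle replicate 2 stood above all 3. Of the INK4 inhibitors, which block CDK4 and CDK6, 1 of 3 was higher, Cdkn2c at 0.27 ± 0.22 (0.19 and 0.35), and the list had a median of -0.06 (0.19 and 0.11).

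Pocket proteins and E2F factors were lower in 9 of 12, with a median of -0.10 and 0 at an unadjusted p under 0.05. The pocket proteins Rbl1 and Rbl2 differed in direction. Rbl1, itself an E2F target that is high in cycling cells, read 6.03 and 6.66 with vehicle and 5.95 and 5.68 with ormeloxifene, a difference of -0.53 ± 0.27 (-0.07 and -0.98). Rbl2, the form that predominates in resting cells, read 7.44 and 7.44 with vehicle and 7.82 and 7.68 with ormeloxifene, a difference of 0.31 ± 0.20 (0.38 and 0.24). Tfdp2, a dimer partner of E2F factors, differed by 0.33 ± 0.22 (0.57 and 0.08). Median differences in this list were -0.04 within number 1 and -0.19 within number 2.

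Genes that E2F factors drive in S phase were lower in 11 of 12, with a median of -0.33, and 2 of them stood at an unadjusted p under 0.05, both lower; over all genes 46.6% were lower and 1.08% stood at that p on the lower side. Pcna, the sliding clamp of DNA polymerases, read 8.75 and 9.26 with vehicle and 8.26 and 8.34 with ormeloxifene, a difference of -0.71 ± 0.24 (-0.49 and -0.92). Ccna2, the cyclin of S phase and mitosis, read 7.03 and 7.52 with vehicle and 6.43 and 6.42 with ormeloxifene, so the groups differed by -0.85 ± 0.24 (-0.60 and -1.10). Mcm6, a subunit of the replicative helicase, differed by -0.53 ± 0.23 (-0.30 and -0.76). The vehicle arrays themselves differed in this list by a median of 0.43, replicate 2 being higher in 11 of 12. Over the 18166 genes tested that median was 0.05, with vehicle replicate 2 higher in 9920. The median difference between the groups was -0.15 within number 1, where 7 of 12 were lower. Within number 2 it was -0.65, and 12 of 12 were lower. Of the 18166 genes, 7942 were lower within number 1 and 9567 within number 2.

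Genes known as Myc targets were lower in 10 of 11, with a median of -0.19, and 3 stood at an unadjusted p under 0.05, all lower, beside the same shares over all genes, 46.6% and 1.08%. Nop56, a core protein of box C/D nucleolar particles that modify ribosomal RNA, read 8.48 and 8.75 with vehicle and 7.84 and 7.99 with ormeloxifene, a difference of -0.70 ± 0.22 (-0.63 and -0.76). Odc1, the first enzyme of polyamine synthesis, read 8.12 and 8.33 with vehicle and 7.49 and 7.70 with ormeloxifene, a difference of -0.63 ± 0.21 (-0.64 and -0.63). For Nop58, the partner of Nop56, the difference was -0.55 ± 0.23 (-0.53 and -0.57). Both ormeloxifene arrays lay below both vehicle arrays in 5 of the 11, these 3 among them, as they did in 11.8% of all genes. The list had medians of -0.21 within number 1 and -0.15 within number 2, with 10 of 11 lower in each. Of the 18166 genes tested, 7942 were lower within number 1 and 9567 within number 2. Nucleolin, encoded by Ncl, differed by -0.10 ± 0.24 (-0.19 and -0.02) and the lactate dehydrogenase gene Ldha by -0.03 ± 0.34 (-0.27 and 0.21), each with overlapping groups.

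**Figure D3:**
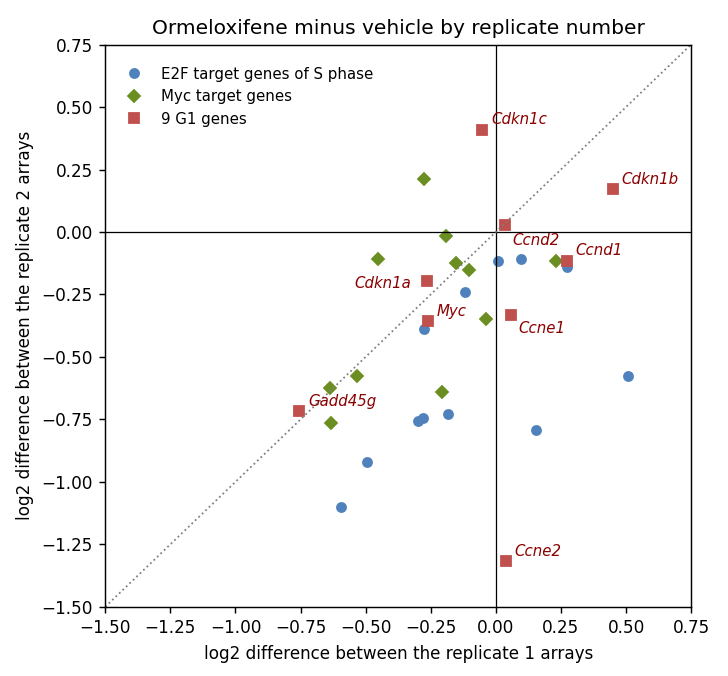
Log2 difference, ormeloxifene minus vehicle, between the replicate 1 arrays (horizontal axis) and between the replicate 2 arrays (vertical axis) for the 9 genes (red squares), E2F target genes (blue circles) and Myc target genes (green diamonds); points on the dotted line have the same difference in both. Gadd45g and Myc lie near the line, and Ccne2 and the E2F target genes lie below it.

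Of 10 measured genes in the network around Myc, 7 were higher and 3 lower, with a median of 0.05 (0.08 and -0.05). Mxd3, a partner of Max that is expressed in S phase, differed by -0.50 ± 0.23 (-0.79 and -0.21). Mlx, a partner of the glucose-sensing Mondo factors, differed by -0.38 ± 0.20 (-0.32 and -0.43), and Mxd4, an antagonist of Myc, by 0.27 ± 0.21 (0.35 and 0.18). The Myc paralogue Mycn differed by 0.02 ± 0.22 (0.06 and -0.02). Of the ubiquitin ligase parts that turn over G1 cyclins, p27 and Myc, 5 of 9 were higher and 4 lower, with a median of 0.03 (0.11 and -0.05). Cks1b, the cofactor through which Skp2 recognises p27, was higher on both replicate 2 arrays, like the E-type cyclins, at 5.61 and 6.80 with vehicle and 5.46 and 6.37 with ormeloxifene, and differed by -0.29 ± 0.44 (-0.16 and -0.43); it was singled out after its values were seen. Skp2 differed by 0.07 ± 0.24 (0.38 and -0.24). Fbxo31 and Rbx1 had the smallest unadjusted p of this list by limma. Fbxo31 differed by 0.27 ± 0.25 (0.43 and 0.10) and Rbx1 by -0.23 ± 0.22 (-0.15 and -0.30), each with overlapping groups.

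Within the Gadd45 and p53 circuit 4 of 7 were higher and 3 lower, at a median of 0.00 (0.18 and -0.04). Sesn1, a p53 target that restrains growth signalling, differed by 0.41 ± 0.21 (0.30 and 0.52), and Ccng1, an atypical cyclin induced by p53, by 0.19 ± 0.20 (0.21 and 0.16). For each, both ormeloxifene arrays lay above both vehicle arrays, as they did in 13.9% of all genes. Of the other p53 targets in the list, Mdm2, the ligase that degrades p53, differed by -0.08 ± 0.26 (0.12 and -0.29) and Zmat3, an RNA-binding protein, by -0.06 ± 0.25 (0.34 and -0.46), each with overlapping groups. Known regulators of division in the uterus were higher in 5 of 10 and lower in 5, with a median of -0.07 (0.08 and -0.16). Hand2, a stromal factor that restrains epithelial division under progesterone in mice, had a mean of 8.38 ± 0.07 on the vehicle arrays and 8.07 ± 0.11 on the ormeloxifene arrays (SD, n = 2). Hand2 differed by -0.31 ± 0.21 (-0.43 and -0.19), with both ormeloxifene arrays below both vehicle arrays, as in 11.8% of all genes. Cebpb, needed for stromal division in mice, differed by -0.24 ± 0.23 (-0.25 and -0.23). The growth factor gene Igf1, an oestrogen-responsive mitogen of the uterus, differed by 0.11 ± 0.21 (0.24 and -0.02). In each of these 3 lists and in the Myc network, 0 members stood at an unadjusted p under 0.05 by limma.

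**Figure D4:**
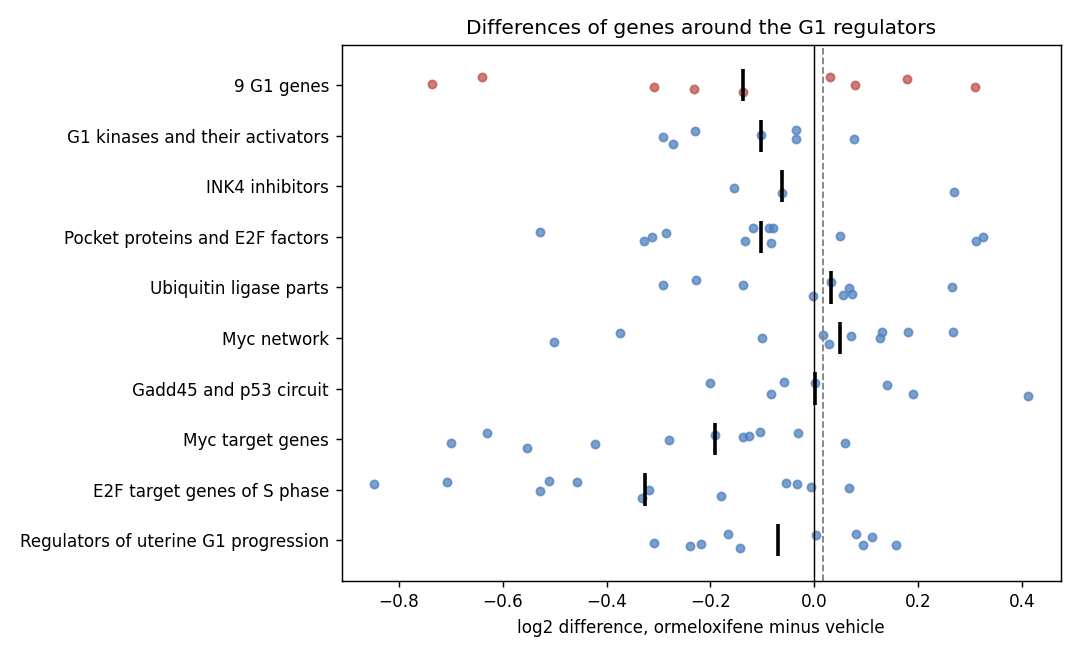
Log2 difference, ormeloxifene minus vehicle (horizontal axis), of each measured gene in the lists around G1 (1 point per gene, spread vertically for legibility), with list medians as black bars and the median of all genes as a dashed line at 0.02. Median differences run from -0.33 for E2F target genes to 0.05 for the Myc network.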

How the data were processed

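Total RNA from uterus was extracted with Trizol and 100 ng was turned into biotin-labelled single-stranded DNA for Affymetrix arrays, per the labels' protocols. The authors deposited log2 values for 36685 probe sets on 4 arrays, made with Affymetrix Expression Console per the submitters' processing notes; the sources used here give no version, summary method or genome build. That the scale is log2 was read from the values (0.923 to 13.59). Column medians of 5.67 and 5.93 with ormeloxifene and 5.72 and 5.84 with vehicle showed no shared distribution, so quantile normalization over all probe sets was applied. No measure of background came with the values, and precision is limited by the number of arrays.

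Of the probe sets, 18511 had exactly 1 symbol, 575 had several and 17599 had none; 18394 of the 18511 matched GRCr8 gene numbers, used for names and promoter windows (RefSeq). The probe set of highest mean was kept per gene, which left 18166. Differences come from limma 3.58.1 (lmFit, eBayes, no trend, no block, two-sided; R 4.3.3), adjusted over all genes by the Benjamini-Hochberg method at a threshold of 0.05. The residual degrees of freedom were 2 per gene, or 7.55 with moderation. The fit was tested on simulated data with independent errors on each array, so that test does not cover arrays that resemble each other by number. Named genes were the members, up to 3 genes of smallest p per list, and genes given for their role, which were chosen after their values were seen (Gadd45a, Mdm2, Zmat3, Ncl, Ldha, Mycn, Cks1b, Skp2, Igf1). The members and lists were chosen with earlier results of these data known. Alternatives covered the replicate number as a block, scaling, probe sets, filters, the variance prior and single arrays left out.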

Additional observations from a re-analysis of the deposited data

How the results depend on the processing

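All 9 genes were recomputed under 12 alternatives, and in 101 of the 108 values the direction and the side of the adjusted threshold were those reported. The block, the probe set rules, the dim filter and the intensity trend leave each member's difference unchanged by construction, so with them only the p could move. The direction could change only through the scaling or an array left out. The 7 values of opposite sign all came from leaving out an array: Ccnd1 (-0.21 without ormeloxifene replicate 1, -0.02 without vehicle replicate 2), Ccnd2 (-0.16 and -0.16), Ccne1 (0.09 and 0.29) and Ccne2 (0.28 without vehicle replicate 2). On the values as deposited and with arrays centred on their medians, 5 of the 9 were lower, as reported. With single arrays left out the count ran from 5 to 6. Leaving out single arrays gave ranges of -0.21 to 0.37 for Ccnd1, -0.16 to 0.22 for Ccnd2, -0.56 to 0.29 for Ccne1 and -1.56 to 0.28 for Ccne2. No member passed the adjusted threshold in any setting run. With all 4 arrays, Gadd45g stood at an unadjusted p under 0.05 by limma in each setting, joined by Ccne2 on deposited values with the block. The Gadd45g difference was -0.59 without ormeloxifene replicate 2 and -0.57 without vehicle replicate 1. Without vehicle replicate 1 that of Ccne2 was -1.56. With the replicate number as a block, Gadd45g had an unadjusted p of 0.00197 (adjusted p = 0.376) and Ccne2 of 0.0571 (0.754); on the values as deposited with the block the adjusted p was 0.115 and 0.239. The labels do not say what the numbers stand for; deviations of same-numbered arrays from their group means correlated at r = 0.475 across genes, which are not independent replicates, and with 2 pairs this is a hint from the data and not the design. Over all genes, the number past the adjusted threshold was 0 as reported, 5 with the block, 84 on deposited values with the block, 1 with arrays centred on their medians, 1 with probe sets averaged, 4 with dim genes (lowest 20%) left out, 3 with an intensity trend, and 0 to 3 with single arrays left out, where a lone array is taken to vary like the other group. The causes were not tested. The block on deposited values had 39.6 degrees of freedom after moderation, so its p-values rest mostly on variance shared between genes.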
